A study of Xenopus tropicalis with 12 samples.

Results

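The response of the wild type Xenopus tropicalis hind limb to thyroid hormone (T3) was measured by RNA sequencing, from the 6 wild type libraries among the 12 of the series. They are the 3 libraries of wild type tadpoles given T3 (10 nM, 18 h) and the 3 libraries of untreated wild type tadpoles, chosen by genotype and treatment and by no measured value. Tadpoles were at stages 52 to 54 per the labels, with the hormone given at around stage 54, the onset of natural metamorphosis. The other 6 libraries, treated in the same way or untreated, came from TRα (-/-) tadpoles, which lack thyroid hormone receptor α and, per the labels, were born from the same parents as the wild type, and they are given here only beside the wild type values. Each group was 1 RNA preparation merged from several tadpoles and sequenced as 3 technical replicates, so that SDs and p-values measure the noise between libraries of a pool and not the variation between tadpoles.

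T3 acts through nuclear receptors, TRα and TRβ, which bind DNA as partners of the retinoid X receptor. Without hormone the receptors recruit corepressors to their target genes, and with hormone they recruit coactivators, so that the same receptor represses or activates a gene depending on T3. In tadpoles a rise of T3 drives metamorphosis, and the hind limb, which grows and forms its digits in that period, is among the early tissues to respond. Direct targets and genes further downstream are both expected to move within a treatment of less than a day, and RNA levels do not separate them. In RNA from whole limbs, fewer cells of a type and less RNA per cell cannot be told apart.

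Total counts per library ran from 35530816 to 52430305 with T3, against 34128557 to 42644751 without T3. The deposited table pairs no gene ID with a gene name, and the name table at hand held none of the 19921 IDs. Genes are therefore described by scaffold position, exon structure and level, receptor genes, pathways and limb markers were not analysed here, and the labelled tissue was not checked against markers. Levels are CPM, counts relative to a common library total after TMM scaling, which sets the bulk of genes in each library to a common level. CPM are not divided by gene length.

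T3 upregulated 3263 genes (22.8% of the 14320 tested) and downregulated 3600 (25.1%) by 2-fold or more in the wild type hind limb, at an edgeR adjusted p under 0.05. Together these were 6863 genes, 47.9% of those tested. Scaling by total counts alone, without TMM, gave 5106 upregulated and 2239 downregulated genes and shifted the median log2 change of all genes by 0.54, so that the balance between directions depends on the scaling, while DESeq2 size factors gave 3359 and 3473. The spread between pools was not measured, and with an assumed relative spread (BCV) of 0.4 between pools 905 and 963 genes passed. The middle of the distribution lay near no change, with a median log2 change of -0.05, a 10th percentile of -1.98 and a 90th percentile of 1.89. The median absolute log2 change over all tested genes was 0.95 in wild type and 0.45 in TRα (-/-), whose comparison shares no library with that of wild type. By the same rule T3 upregulated 1022 genes (7.14%) and downregulated 1380 (9.64%) in TRα (-/-). At the other end, 2149 genes lay within 1.2-fold either way in wild type.

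The libraries of the 2 pools stood clear of each other for most genes. All 3 libraries with T3 lay above all 3 without T3 for 6184 genes (43.2% of those tested), and all 3 lay below for 6595 (46.1%). Of the upregulated genes 3249 of 3263 were separated in this way, and of the downregulated genes 3585 of 3600. Called genes were chosen on these same libraries, so their separation, and their part in the pairings below, are no independent test. Comparing single libraries, 1 with T3 against 1 without, on log2(CPM + 1), gave 2524 to 2568 genes up and 2561 to 2615 genes down by 2-fold in the 9 possible pairings. In all 9 pairings the change reached 2-fold for 2220 of the upregulated and 2187 of the downregulated genes. The pseudocount shrinks the change of low genes, which lowers these counts. The median coefficient of variation between libraries of the upregulated genes was 3.4% with T3 and 5.48% without, and that of the downregulated genes was 4.73% with T3 and 4.10% without. Replicate 2 with T3 differed most from its group in a chi-square comparison of counts (11.1 and 10.7 per degree of freedom, where the other pairs of wild type libraries gave 1.95 to 4.25). However, among the 7764 genes of 10 CPM or more, 5 departed in it by 1.5-fold or more from the mean of the other 2 libraries. By the same measure, taken on CPM + 1, replicates 1 and 3 also gave 5 genes each.

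**Figure D1:**
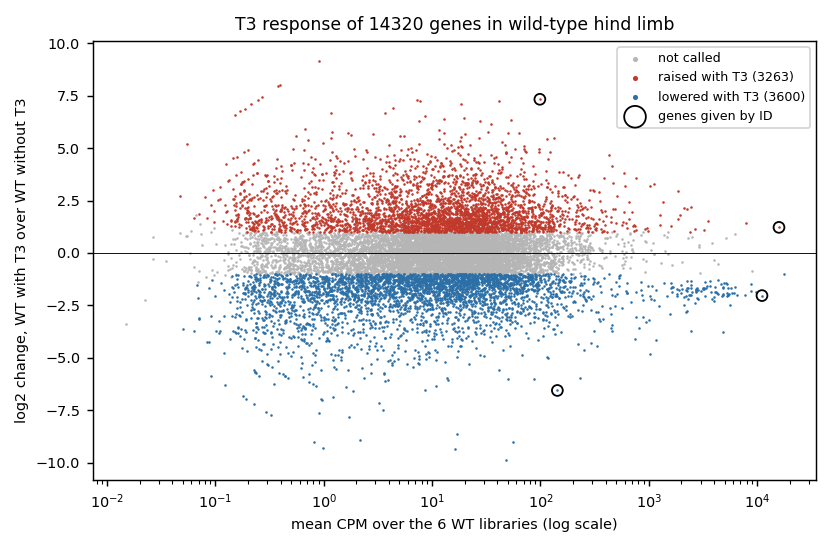
Each point is 1 of the 14320 tested genes, placed by its mean CPM over the 6 wild type libraries (log scale) and by its fitted log2 change with T3 over without T3. Red points are the 3263 upregulated and blue points the 3600 downregulated genes, circles mark the 4 genes given by ID, and most genes at the right end, above 1000 CPM, lie below 0.

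Strong changes were common in both directions. By 4-fold or more, 1296 genes were upregulated (9.05%) and 1408 downregulated (9.83%), by 8-fold 527 and 563, by 16-fold 188 and 215, and by 32-fold 60 and 88. Under total counts alone the 4-fold counts were 2178 and 840. Genes upregulated 2- to 4-fold had a median of 19.9 CPM with T3 and 7.43 CPM without, whereas those upregulated 32-fold or more had a median of 16.3 CPM with T3 and 0.280 CPM without. The upregulated genes thus reached similar median levels with T3 and differed in their level without it, an ordering that the choice by fold partly sets. For the downregulated genes the median was 5.62 CPM with T3 and 14.8 CPM without in the 2- to 4-fold class, and 0.0411 CPM with T3 and 3.24 CPM without in the class of 32-fold or more. In that last class many genes had few counts with T3, and fitted changes there depend on the prior count of the fit.

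The same genes were then followed in TRα (-/-). Levels in those libraries do not enter the wild type change, but they shared the filter, scaling and estimate of spread behind the calls. Of the genes upregulated in wild type, 2762 of 3263 (84.6%) had a positive log2 change with T3 in TRα (-/-), and of the genes downregulated, 3122 of 3600 (86.7%) had a negative one. Over all tested genes the median log2 change with T3 in TRα (-/-) was -0.02. The change of the chosen genes was smaller in TRα (-/-) than in wild type in every class of fold. Genes upregulated 2- to 4-fold had a median log2 change of 1.41 in wild type and 0.51 in TRα (-/-), and those upregulated 32-fold or more had 5.72 in wild type and 1.63 in TRα (-/-). The share also called upregulated in TRα (-/-) was 14.7% in the lowest class, 40.7% at 4- to 8-fold, 48.7% at 8- to 16-fold, 53.9% at 16- to 32-fold and 58.3% at 32-fold or more. For the downregulated genes the share was 14.9%, 35.4%, 56.0%, 74.0% and 71.6% from the lowest to the highest class. Of all tested genes, 7.14% were called upregulated and 9.64% downregulated in TRα (-/-). Calls in opposite directions were made for 56 of the 3263 upregulated and 40 of the 3600 downregulated genes. By the interaction test, which compares the T3 change of the 2 genotypes, the response was weaker by 2-fold or more in TRα (-/-) for 1932 of the upregulated genes (59.2%) and stronger for 3 (0.0919%), where 34.3% of all tested genes passed in either direction. Among the downregulated genes it was weaker for 2270 (63.1%) and stronger for 16 (0.444%). Since the genes were chosen by their wild type change, which enters the interaction, these shares describe the genes and are no independent test.

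**Figure D2:**
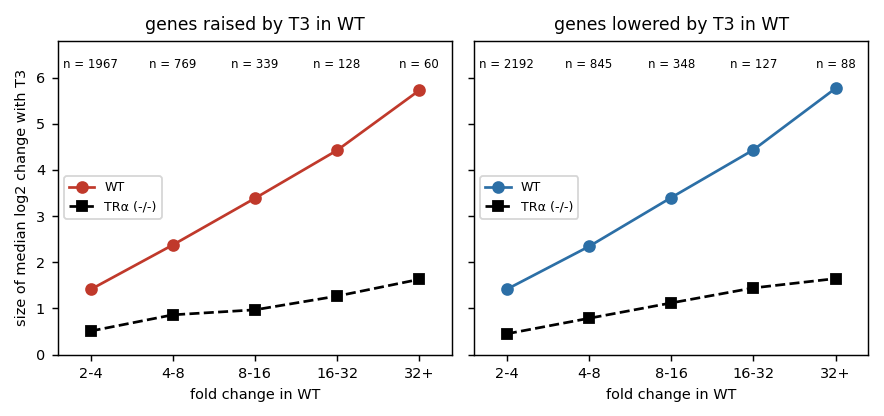
The size of the median log2 change with T3 (vertical axis) is drawn for genes grouped by their fold change in wild type (horizontal axis), upregulated genes on the left and downregulated genes on the right, with the number of genes above each class. Circles are wild type, whose values follow from the grouping, and squares are TRα (-/-), which climb from 0.51 to 1.63 for upregulated genes and run from -0.45 to -1.65, drawn by size, for downregulated genes.

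Counts were spread over more genes after T3 treatment. With T3, 237, 220 and 230 genes of the 3 libraries together held 50% of all counts, against 82, 82 and 81 genes without T3. The numbers were 92, 93 and 94 in TRα (-/-) with T3 and 79, 78 and 76 in TRα (-/-) without. The 3263 upregulated genes held 34.3% to 34.7% of all counts with T3 and 7.21% to 7.30% without T3. The 3600 downregulated genes held 27.1% to 27.8% with T3 and 67.4% to 67.5% without. Neither pair of groups overlapped. These genes were chosen on the same change, so the shares give the size of what moved and no test of it. In TRα (-/-) libraries, whose levels did not enter that change, the upregulated genes held 21.7% to 21.9% with T3 against 13.9% to 14.2% without. The downregulated genes held 48.8% to 49.2% with T3 against 58.6% to 59.6% without. In CPM, 111 genes lost 1000 or more, of which 108 were called downregulated, and 25 gained as much, of which 20 were called upregulated. Only an abundant gene can lose as much. Summed over tested genes, CPM came to 747861 with T3 and 1087060 without, so the balance of losses and gains depends on the scaling. Genes of at least 1 CPM without TMM scaling numbered 12476 to 12482 with T3 and 12264 to 12279 without.

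The response differed by how heavily a gene was counted. Of the 141 genes with a mean of 1000 CPM or more, T3 downregulated 100 (70.9%) and upregulated 18 (12.8%), with a median log2 change of -1.67 in wild type. Their median in TRα (-/-) was -0.28, where 3 of them were called upregulated and 2 downregulated, against 7.14% and 9.64% of all tested genes. Among these abundant genes, the nuclear ones of less than 1000 bp made up most of those downregulated, with 78 of 87 and a median of -1.80. Of the 49 longer nuclear ones, 22 were downregulated and 16 upregulated. Under total counts alone 86 of the 141 were downregulated and 27 upregulated, and without replicate 2 with T3 the numbers were 100 and 17. From 100 to below 1000 CPM the directions were nearly even, with 28.7% of 846 genes upregulated and 27.7% downregulated. From 10 to below 100 CPM, 22.8% of 6777 genes were upregulated and 19.8% downregulated. Among 4781 genes from 1 to below 10 CPM the shares were 21.6% and 26.6%. Below 1 CPM, 23.9% of 1775 genes were upregulated and 36.7% downregulated, in a class where a gene could pass the filter on low counts through its higher group alone.

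Gene length went with the direction as well, and genes of many exon blocks were upregulated less often. Genes whose exons sum to less than 1000 bp were upregulated in 27.4% of 2744 cases and downregulated in 26.3%, whereas those of 4000 bp or more were upregulated in 15.1% of 1380 cases and downregulated in 26.7%. Relative to all tested genes, the median log2 change was 0.14 below 1000 bp, 0.04 at 1000 to 2000 bp, -0.03 at 2000 to 4000 bp and -0.28 at 4000 bp or more. From 10 to below 100 CPM the order was steeper. There the share upregulated was 32.8% below 1000 bp, 25.8% at 1000 to 2000 bp, 20.2% at 2000 to 4000 bp and 13.6% at 4000 bp or more, and the share downregulated was 15.7%, 17.3%, 21.6% and 24.9% in the same order. Genes of 20 or more exon blocks, which are stretches of merged exons, were upregulated in 18.4% and downregulated in 27.8% of 2479 cases, against 24.4% and 24.2% of 4206 genes with 5 to 9 blocks. The share upregulated in TRα (-/-) was 8.53% below 1000 bp and 3.84% at 4000 bp or more, so the order by length was present in both genotypes. Scaling by total counts alone gave 357 upregulated and 197 downregulated of the 1380 longest genes. It gave 758 and 414 of the 2479 genes with 20 or more blocks, and 5106 and 2239 of all 14320 tested genes. Relative to all genes, the median log2 change under that scaling was -0.28 for the longest genes. For genes with 20 or more blocks it was -0.20. A change of scaling shifts all genes nearly alike, so these relative medians could hardly move and do not test the pattern. With at least 10 counts required in every library, 25.3% of the genes below 1000 bp and 14.2% of those of 4000 bp or more were upregulated.

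**Figure D3:**
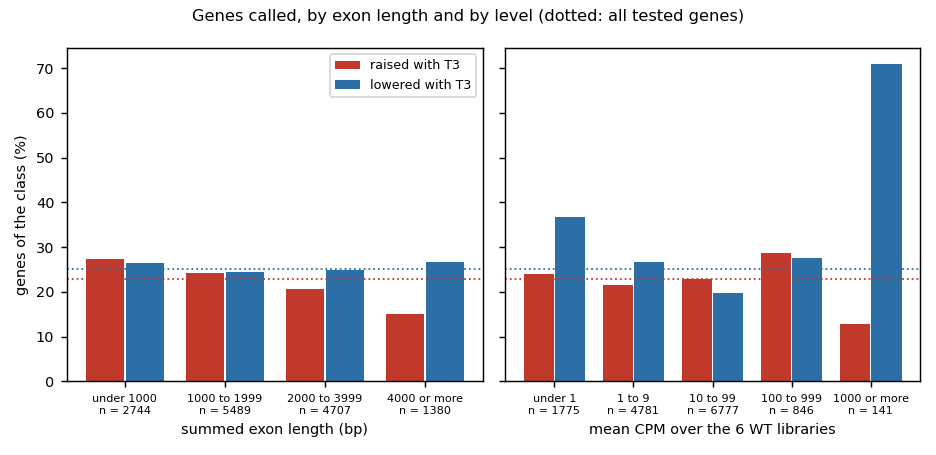
Bars give the percentage of genes in each class that T3 upregulated (red) or downregulated (blue) in wild type, by summed exon length on the left and by mean CPM on the right, and dotted lines are the same percentages over all 14320 tested genes. The share upregulated falls with length to 15.1% at 4000 bp or more, and the share downregulated reaches 70.9% at 1000 CPM or more.

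The shortest genes were described apart, with a limit of 150 bp set after values were seen. Of the nuclear genes made of a single exon block under 150 bp, 1006 were in the table and 107 were tested. Of these, 53 (49.5%) were upregulated and 25 (23.4%) downregulated, beside 22.8% and 25.1% of all tested genes, with a median log2 change of 0.97 in wild type and 0.08 in TRα (-/-). In TRα (-/-) 14 (13.1%) were upregulated and 21 (19.6%) downregulated, beside 7.14% and 9.64% of all. The upregulated share in wild type is partly set by the filter on low counts, since the 53 genes had a median of 33.3 counts per library with T3 and 4.33 without, and 42 of them had under 10 counts in at least 1 wild type library. With at least 10 counts required in every library, 33 short genes were left, of which 11 (33.3%) were upregulated and 9 (27.3%) downregulated. The share of 49.5% is therefore no result about short genes as a class. What these short genes encode is not given in the table.

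Coordinates in the following are those of the deposited table on its JGI scaffolds. The gene with the greatest upregulation among those reaching 100 CPM was ENSXETG00000008530 (GL173308.1, 424973 to 440866, + strand, 12 exon blocks, 1706 bp). It had 190, 204 and 195 CPM in wild type with T3, against 1.27, 1.27 and 1.15 CPM in wild type without T3. All libraries with T3 lay far above all without, with 9152 to 14076 counts against 40 to 45. The log2 change was 7.32 ± 0.068 (SE, edgeR adjusted p 2.48e-31). The gene had 121 ± 3.2 CPM with T3 and 20.1 ± 1.1 CPM without in TRα (-/-) (SD, n = 3), a log2 change of 2.59. The level without T3 was thus higher in TRα (-/-) and the level with T3 lower than in wild type.

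The gene that gained the most CPM was ENSXETG00000003374 (GL172791.1, 1008038 to 1034194, - strand, 51 exon blocks, 5681 bp). It had 21872, 23133 and 21760 CPM with T3, against 9662, 9571 and 9423 CPM without. It took more counts than any other gene in wild type with T3, 2.92% to 3.05% of each library, and was in 11th place without T3. The groups did not overlap, and the log2 change was 1.22 ± 0.025 (SE, edgeR adjusted p 8.99e-25). Per kilobase of exon its level was 3917 CPM with T3 and 1681 CPM without. TRα (-/-) libraries held 19799 ± 568 CPM with T3 and 15995 ± 78 CPM without (SD, n = 3), a log2 change of 0.31.

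Among the downregulated genes, ENSXETG00000023416 (GL172939.1, 1236592 to 1250630, - strand, 13 exon blocks, 2686 bp) changed most among those reaching 100 CPM. It had 2.98, 2.94 and 3.17 CPM with T3, against 282, 287 and 281 CPM without. The level with T3 rested on 143 to 203 counts per library. The log2 change was -6.55 ± 0.052 (SE, edgeR adjusted p 6.35e-32). In TRα (-/-) it had 6.95 ± 0.34 CPM with T3 and 41.6 ± 1.3 CPM without (SD, n = 3), a log2 change of -2.58.

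The greatest loss in CPM was that of ENSXETG00000021236 (GL173096.1, 131590 to 134900, + strand, 4 exon blocks, 865 bp). It had 4272, 4503 and 4293 CPM with T3, against 17524, 17569 and 18306 CPM without. This gene ranked 2nd by CPM in wild type without T3 and 11th with T3. The log2 change was -2.03 ± 0.029 (SE, edgeR adjusted p 4.89e-28). Its level in TRα (-/-) was 15449 ± 661 CPM with T3 and 16412 ± 204 CPM without (SD, n = 3), a log2 change of -0.09, under the 2-fold limit. With a BCV of 0.4 assumed between pools, ENSXETG00000003374 and ENSXETG00000021236 were no longer called. None of the 4 genes overlaps another gene of the table.

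**Figure D4:**
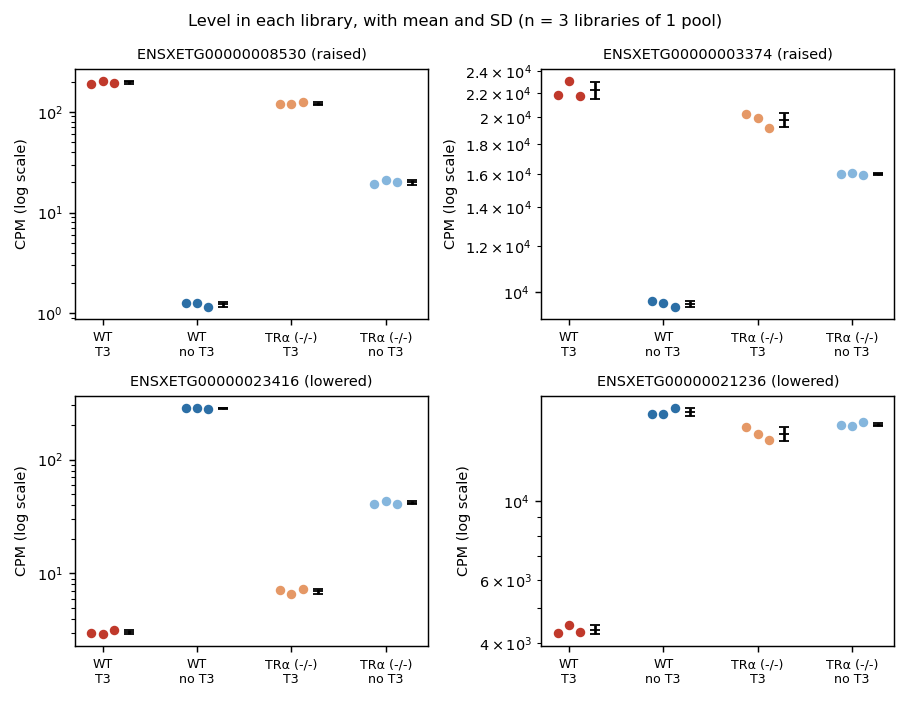
Points are CPM per library (log scale) of the 4 genes given by ID, upregulated above and downregulated below, in wild type with T3, wild type without T3, TRα (-/-) with T3 and TRα (-/-) without T3, with mean and SD of 3 libraries beside them. In wild type the groups do not overlap for any of the 4 genes, and are nearest at the upper right, at 22255 against 9552 CPM. In TRα (-/-) the groups are closer, to 15449 against 16412 CPM for the gene at the lower right.

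Some genes were seen in 1 condition alone. Those seen with T3 alone had 30 counts or more in every library with T3 and 3 or fewer in every library without. There were 25 of them, and by the reverse rule 20 genes were seen without T3 alone. These limits are raw counts, and 3 counts came to a mean of 0.0890 CPM without T3 and 0.0547 CPM with T3. A smaller ratio in CPM therefore sufficed for genes seen with T3 alone. Neither the numbers of genes nor the ratios of the 2 lists compare like with like. For 3 of the 25 genes all libraries without T3 were at 0, and the levels with T3 were at least 8.54-fold to 20.1-fold higher against a floor of 3 counts per library. The other 22 had a ratio of T3 over no T3 from 10.6 to 120, with a median of 24.1. The gene with the most counts among the 25, at 648500 to 685614 of GL173114.1, had 336, 516 and 379 counts with T3 and 2, 2 and 3 without, a ratio of 107 (95% exact interval 51.6 to 266, counting error only). A pair of adjacent single-block genes of 133 and 135 bp on GL172773.1, at 1563223 to 1563355 and 1563549 to 1563683, were both among the 25, with 34, 63 and 38 counts with T3 against 0, 0 and 0 without for the first, and 61, 83 and 62 against 2, 2 and 2 for the other. Of the 25, 1 reached 30 counts in every TRα (-/-) library with T3 and 1 did so without T3. Nearly all of the others lay between the limits in TRα (-/-), with 2 genes at 3 counts or fewer in every library with T3 and 3 genes without.

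The 20 genes seen without T3 alone had, for the 18 with any count in T3 libraries, a ratio of no T3 over T3 from 38.7 to 723, with a median of 98.9. For 2 genes all T3 libraries were at 0, and they were at least 29.7-fold and 36.2-fold lower with T3. The gene with the most counts, at 1120681 to 1139055 of GL172861.1, had 2, 3 and 3 counts with T3, against 1039, 997 and 1261 without. The ratio of no T3 over T3 was 680 (95% exact interval 345 to 1576). It had 2, 6 and 2 counts in TRα (-/-) with T3 and 108, 121 and 141 without, so it was low with T3 in both genotypes. Of the 20, 8 reached 30 counts in every TRα (-/-) library without T3 and 1 did so with T3. With limits of 10 and 100 counts, 34 genes were seen with T3 alone and 15 without T3 alone. These limits too are raw counts and were easier to meet for genes seen with T3 alone. The genes given in this and the previous paragraph were picked after their values were seen.

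Upregulated and downregulated genes were next placed along the scaffolds. Of 12294 pairs of adjacent, non-overlapping tested nuclear genes, both were upregulated in 738 (6.0%), both downregulated in 880 (7.16%), and the members moved in opposite directions in 1216 (9.89%). A gene beside an upregulated gene was itself upregulated in 26.1% of cases, where 23.0% of the genes in pairs were. A gene beside a downregulated one was downregulated in 29.0%, against 24.7% of the genes in pairs. The excess was small over all pairs, was not tested and varied between arrangements. For pairs 10 to below 100 kb apart, the most frequent, 31.0% were downregulated beside a downregulated gene against 26.3% of the genes in them. In the same pairs 23.3% were upregulated beside an upregulated gene against 21.7%. Pairs 100 kb or more apart gave 23.9% against 22.2% for upregulated genes and 24.0% against 23.8% for downregulated ones. In all head-to-head pairs, that is with adjoining 5′ ends, 26.7% were upregulated beside an upregulated gene against 23.4%. Among 508 pairs less than 1000 bp apart, 31.4% of genes were upregulated and 41.4% of the neighbours of an upregulated gene were. They include the neighbours in the run of short genes on GL173418.1 given below, which gene counts do not separate from 1 transcript. Of these pairs 318 stood head to head, where the shares were 30.5% and 40.2% and 13.4% of genes were downregulated. Pairs on the same strand gave 33.0% downregulated beside a downregulated gene, against 26.0% of the genes in them. Pairs standing tail to tail showed little excess, with 23.8% upregulated beside an upregulated gene against 23.5%, and 23.4% downregulated beside a downregulated gene against 24.1%. Reads that 2 close genes share could not be separated in these counts, since strand handling is not stated.

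Runs of 4 or more neighbouring tested genes that all moved one way numbered 39 for upregulated genes, holding 172 of 3263. For downregulated genes there were 55, holding 264 of 3600. Runs of 1 gene numbered 1958 and 2067. With 22.8% and 25.1% of all tested genes called, some runs arise in any order of genes, and an excess was not tested. Untested genes between members were skipped. The longest downregulated run held 11 genes over 384 kb of GL172699.1, from 305968 to 689625. Of these, 10 lay on the - strand, and all had 5 to 12 exon blocks. Their log2 changes ran from -6.96 to -1.55 with a median of -4.43, and the first, which had 1, 1 and 0 counts with T3 against 58, 62 and 70 without, has a fitted value that depends on the prior count. Summed over the run the level was 18.6 CPM with T3 and 226 CPM without. The most counted member, from 570266 to 602846, had 4.87, 4.29 and 4.67 CPM with T3, against 100, 97.5 and 99.4 CPM without (log2 change -4.43 ± 0.045, SE, edgeR adjusted p 1.02e-30). It overlaps the next gene by position, which fell alike, and the last member of the run also overlaps a gene by position. How reads mapping to several places were counted is not stated, so the members may not be independent. In TRα (-/-) the median log2 change of the 11 genes was -1.03, and 6 of them were called downregulated, where 9.64% of all tested genes were. Of all genes downregulated in wild type 27.1% were so called, and of those downregulated 16- to 32-fold, the class of the run's median, 74.0%. The run therefore did not stand out from genes of like change.

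After 1 upregulated gene, from 713675 to 729477, the same scaffold went on with 6 more downregulated genes from 753694 to 935762, at 4.03 CPM in sum with T3 and 18.0 CPM without. The upregulated gene overlaps another and was near 0 without T3, at 0.0634, 0.0955 and 0.0255 CPM. Several of the 6 were near 0 with T3, the lowest at 0.0208, 0.0290 and 0.0195 CPM. In all, 24 of the scaffold's 38 tested genes (63.2%) were downregulated and 6 upregulated. This was the highest downregulated share among the 206 scaffolds with 20 or more tested genes, whose median was 24.0%. The next longest downregulated run, of 10 genes on GL173117.1 from 40496 to 493235, had 64.0 CPM in sum with T3 and 394 CPM without. Among those 206 scaffolds the highest share upregulated was 11 of 21 genes (52.4%), on GL172883.1, where the median was 22.2%.

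The longest upregulated run was of another kind. It held 7 genes within 4.03 kb of GL173418.1, from 31693 to 35718, all single-block, on the + strand and 65 to 126 bp long, and so belonged to the short genes described above. Their log2 changes ran from 1.08 to 2.63 with a median of 1.63, and their sum was 29.8 CPM with T3 and 7.80 CPM without. The gene with the largest change, at 31693 to 31763, had 17, 27 and 20 counts with T3 and 0, 3 and 3 without. Its fitted value depends on the prior count. The most counted, at 35087 to 35151, had 13.0, 11.3 and 11.1 CPM with T3, against 2.06, 2.83 and 2.45 CPM without. The TRα (-/-) median of the 7 was 1.12 and 4 were called upregulated, where 7.14% of all tested genes were. Of all genes upregulated in wild type 26.7% were so called, and of those upregulated 2- to 4-fold, the class of the run's median, 14.7%. Gene counts do not show whether genes this close lie on 1 transcript. A run of 6 short genes over 4.46 kb of GL174181.1, from 43613 to 48073, had 8.10 CPM in sum with T3 and 2.30 CPM without. Of the runs of longer genes, 6 neighbours on GL172786.1 from 1526000 to 1694349 summed to 150 CPM with T3 and 36.9 CPM without. The strongest of them, from 1612147 to 1625440, had 37.0, 36.9 and 39.4 CPM with T3, against 4.66, 4.17 and 4.24 CPM without (log2 change 3.12 ± 0.059, SE, edgeR adjusted p 1.95e-25).

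Neighbouring genes of like structure also moved in opposite directions. On GL173290.1, a scaffold picked after its values were seen, 9 of 12 genes were tested. All 9 lay on the + strand, with 8 to 11 exon blocks and 1200 to 1713 bp of exon. Of these, 4 were upregulated and 3 downregulated. Those from 365182 to 368517 and from 403750 to 408319 had 3 counts or fewer in every library other than wild type with T3. They passed the filter on low counts through that group alone and could only be called upregulated. The balance of 4 against 3 is thus partly set by the filter. The most abundant, from 203659 to 207716, had 1331, 1346 and 1334 CPM with T3, against 6539, 6582 and 6775 CPM without (log2 change -2.31 ± 0.027, SE, edgeR adjusted p 1.56e-29). Its TRα (-/-) level was 4658 CPM with T3 and 6314 CPM without. The next tested gene, from 302647 to 312070, had 16.6, 18.2 and 17.5 CPM with T3, against 0.855, 0.669 and 0.485 CPM without (log2 change 4.73 ± 0.13, SE, edgeR adjusted p 3.01e-22).

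The following 3 genes of this scaffold were at or near 0 without T3. The gene from 353487 to 359567 had 92, 181 and 124 counts with T3 and 2, 0 and 0 without, a ratio of 120 (95% exact interval 33.1 to 997, counting error only). That from 365182 to 368517 had 16, 24 and 17 counts with T3 and none without, and was at least 3.78-fold higher. That from 403750 to 408319 had 88, 121 and 92 counts with T3 and none without, at least 20.1-fold higher, and no count in any of the 6 TRα (-/-) libraries. Upstream of the abundant gene, those from 92125 to 99156 and from 180879 to 186362 were downregulated, at 6.0 and 0.851 CPM with T3 against 27.1 and 4.70 CPM without. The last tested gene, from 459461 to 484933, had 310 ± 14 CPM with T3 and 165 ± 2.8 CPM without (SD, n = 3), a log2 change of 0.91 that stayed under 2-fold. Since like genes can share reads, and how reads mapping to several places were counted is not stated, the split of counts among these genes is uncertain.

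**Figure D5:**
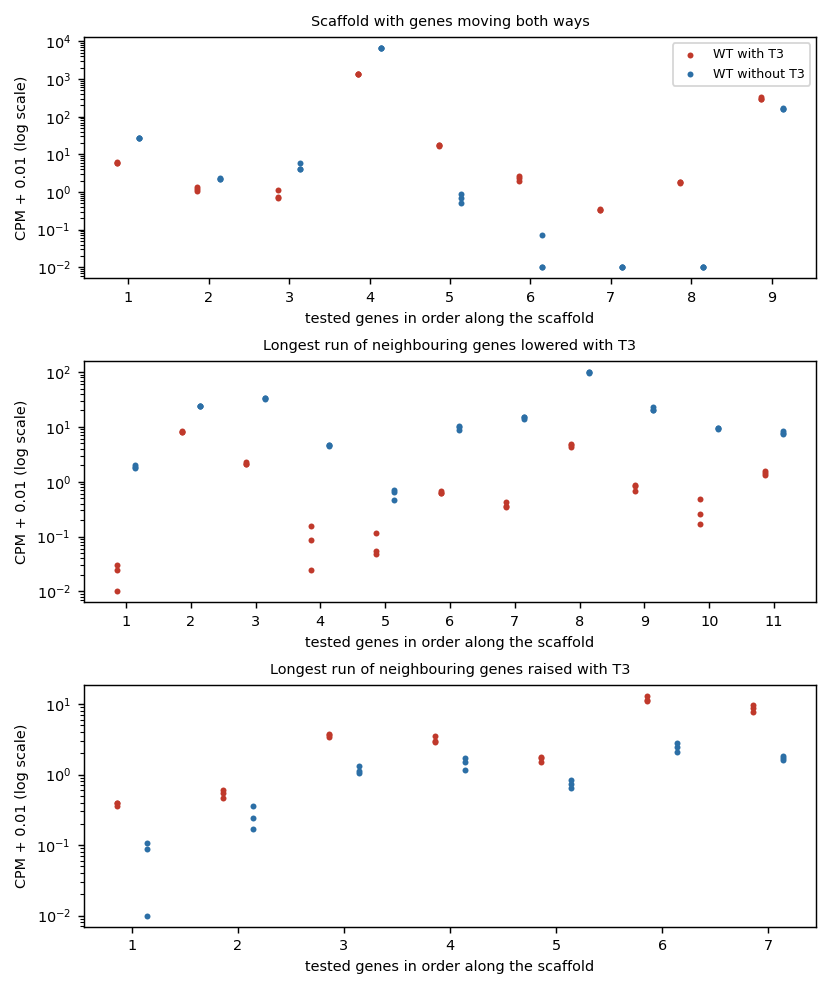
Points are CPM + 0.01 per library (log scale) for tested genes in their order along 3 scaffolds, with T3 in red to the left and without T3 in blue to the right of each place. From top to bottom these are the 9 genes of GL173290.1, the longest run of downregulated genes (11) and the longest run of upregulated genes (7), and points at 0.01 are libraries with no count.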

How the data were processed

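The deposited table holds raw counts per gene, with no normalization, for 12 libraries, together with exon coordinates and summed exon length (other unit, bp). The authors mapped reads to the JGI Xenopus tropicalis assembly and counted them over exons. The submitters' processing notes name STAR 2.5.3a and featureCounts 1.4.6-p3, and the study's methods name other versions. Strand and multi-mapping settings are not given in the sources used here.

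Genes passing edgeR's filterByExpr (14320 of 19921, with 2363 of the rest at 0 throughout) entered a quasi-likelihood fit of TMM-scaled counts (edgeR 4.0.16, R 4.3.3) over all 12 libraries with 1 mean per group. The study used DESeq2, here an alternative (1.42.0). The p-values were Benjamini-Hochberg adjusted over all tested genes, and the SE is the absolute log2 change over the square root of F. The common BCV (relative spread between libraries beyond counting) was 0.0421, a technical value. By position, 720 tested genes overlap another gene. The counting precision of ratios near 0 is given by exact (Clopper-Pearson) intervals at 95%. No libraries of a group agreed within sampling noise. The fit was tested on simulated counts in which few genes changed, a setting that does not test the scaling where many genes move.

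The genes given by ID were, in each direction, the one with the largest absolute log2 change among those with 100 CPM or more in the higher group, and the one with the largest CPM difference, each called, with separated libraries and no overlapping gene. The longest run in each direction was given as a region. The groups compared, classes and genes were chosen with earlier results of these data known. Alternatives were other scalings, filters, tests and spreads, and leaving out libraries. Lists by gene name, and sequences, were not analysed here.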

Additional observations from a re-analysis of the deposited data

Results flagged for a closer look

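The T3 change of all 4 genes given by ID differed between the genotypes by the interaction test, given here as the log2 change in TRα (-/-) minus that in wild type. It was -4.73 for ENSXETG00000008530 (edgeR adjusted p 4.15e-24) and -0.91 for ENSXETG00000003374 (edgeR adjusted p 3.73e-18), both upregulated in wild type. It was 3.97 for ENSXETG00000023416 (edgeR adjusted p 4.75e-24) and 1.94 for ENSXETG00000021236 (edgeR adjusted p 1.08e-23), both downregulated in wild type. Each sign is that of a weaker response in TRα (-/-). The genes were chosen for a large change in wild type, which enters the difference and pushes it to this sign, and they do not stand as separate evidence. Differences between the RNA pools cannot be told apart from genotype.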

How the results depend on the processing

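Some settings moved the counts of 3263 upregulated and 3600 downregulated genes by more than 1.5 times. Total counts alone gave 5106 and 2239, and 2178 and 840 at 4-fold against 1296 and 1408. The adjusted p without a fold threshold gave 6137 and 6570. Summing the libraries of each pool with an assumed BCV of 0.4 between pools gave 905 and 963, where ENSXETG00000003374 (log2 change 1.23) and ENSXETG00000021236 (-2.02) were no longer called. DESeq2, its size factors, other filters, wild type libraries alone and a test against 2-fold kept these overall 2-fold and 4-fold counts within 1.5 times. DESeq2 shared 6721 of the 6863 calls. Counts within classes could move more. With 10 counts required in every library, those of the nuclear genes of 1 block under 150 bp fell from 53 to 11 upregulated and from 25 to 9 downregulated. Without 1 wild type library at a time there were 3269 to 3300 upregulated and 3623 to 3657 downregulated genes, and 1290 to 1333 and 1409 to 1461 at 4-fold. Replicate numbers did not pair the libraries (correlations of same-numbered deviations from -0.05 to 0.02), and with the replicate number as a block 6869 genes were called, 6853 of them shared. Requiring 10 counts in every library turned the median of single-block genes relative to all genes to -0.06, against 0.05, and the other class medians kept their sign. The class counts without replicate 2 with T3 were added after seeing the data. Each condition was 1 pool, so a spread between pools was assumed and not measured, and how many genes pass depends on it.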
